A study of Mus musculus with 15 samples.

Results

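Collagen genes are the protein-coding genes whose symbol in the GENCODE annotation has the form Col, a type number, the letter a and a chain number. Of the 50686 genes counted in mouse quadriceps, 44 were of this kind. A mean of at least 10 normalised counts over the 15 RNA-seq libraries was reached by 37 of them, which fall into 9 structural classes. The study sequenced quadriceps of C57BL/6 offspring at 10 months of age and asked whether a high-fat diet of either parent, and running by the dam in pregnancy, leaves a trace in the muscle of the adult offspring. From 8 weeks of age parents received either normal chow or, over 6 weeks, a 60% high-fat diet, and their mates were 14 weeks old. Dams were housed alone in pregnancy with a running wheel, which was locked for the sedentary groups.

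Each of the 5 groups had 3 libraries. The control offspring had chow-fed parents and a sedentary dam, and both arms of the study share them. Maternal sedentary and maternal exercised offspring had a dam on the high-fat diet, with a locked or a free wheel in pregnancy, and a lean sire. Paternal sedentary and paternal exercised offspring had a sire on the high-fat diet and a lean dam with a locked or a free wheel. In every group the offspring themselves ate chow and stayed sedentary after birth. The labels name neither litters nor sex, so each p-value below measures only the spread between these samples.

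Collagens are built from 3 chains that wind into a triple helix of Gly-X-Y repeats. The chains are hydroxylated and folded in the endoplasmic reticulum, secreted, trimmed by proteases outside the cell and, in the fibril-forming types, cross-linked by lysyl oxidases. In skeletal muscle the fibril-forming types I and III fill the perimysium and endomysium, mostly made by fibroblasts, and type IV forms the sheet-like network of the basement membrane around each fibre and capillary. Type VI filaments link that membrane to the fibrils, type XXII sits at the junction of muscle and tendon, and type XIII spans the muscle cell membrane at the neuromuscular junction. In whole muscle, fewer cells of a type and less RNA per cell cannot be told apart.

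Library totals ran from 18457663 to 26981745 counted reads, and collagen genes took 0.0654% to 0.246% of them. Genes of the muscle fibre summed to 159898 to 219335 CPM, counts scaled to the library total. Libraries that stand apart touch several results below. Hepatocyte markers, which muscle should lack, summed to 157 CPM in control library 2, 3817 and 443 CPM in maternal sedentary libraries 2 and 3, and 228 CPM in paternal sedentary library 1, against 9.15 to 31.6 CPM in the other libraries. Control library 2 and maternal sedentary library 3 also had the fewest detected genes, 17699 and 17581, against 19062 to 20771 elsewhere. Maternal exercised library 3 held far more fibril-forming collagen than any other. The sample titles open with a code whose meaning is not stated: all 3 maternal sedentary libraries share theirs with maternal exercised library 3 alone, and 3 libraries have a code of their own.

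Levels of different genes are compared as reads per kilobase of merged exons, scaled to the counted reads of each library (RPKM), averaged over the 15 libraries. Type IV of the basement membrane led, with Col4a1 at 22.6 ± 4.00 RPKM and Col4a2 at 19.99 ± 3.11 RPKM (SD, n = 15). These are the main chains of most basement membranes. Col1a1, a chain of the type I fibrils of tendon and bone, averaged 10.98 RPKM, but its SD of 17.8 exceeded the mean and its range was 3.55 to 74.2 RPKM. Col6a1 followed at 9.23 RPKM, Col3a1 at 7.59, Col1a2 at 6.69, Col5a3 at 6.53, Col22a1 at 5.33 and Col7a1 at 4.96. Their order among themselves depends on the gene length used, since with the longest transcript in place of merged exons Col1a2 stood at 15.5 RPKM and moved from the 6th to the 3rd rank. It also rests on maternal exercised library 3. Without that library Col1a1 averaged 6.47 RPKM, below Col6a1 at 8.02, and Col3a1, at 4.45 RPKM, moved from the 5th to the 9th rank, below Col5a3, Col22a1, Col7a1 and Col1a2.

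**Figure D1:**
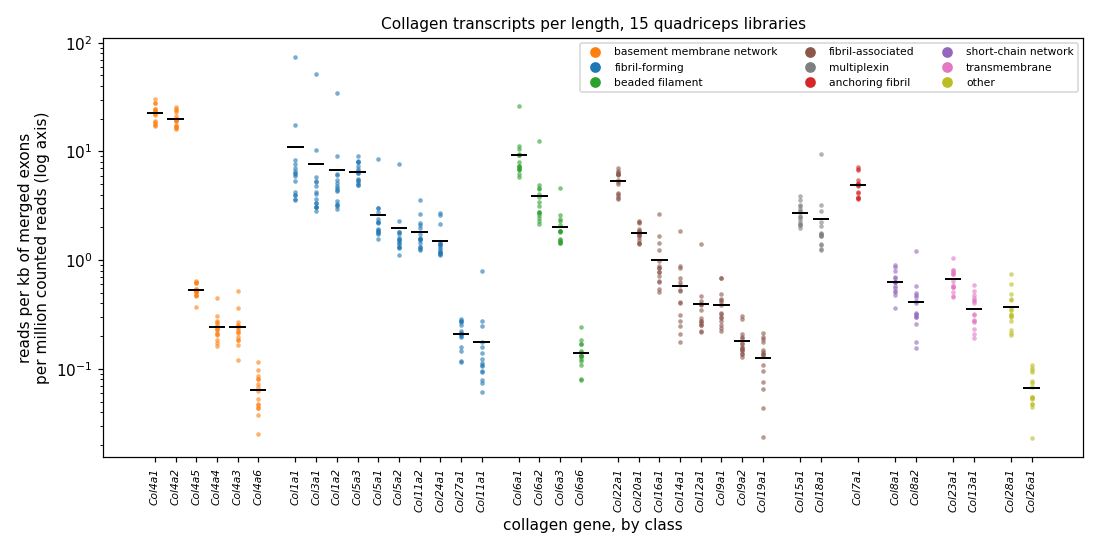
Level per length (RPKM, log axis) of the 37 collagen genes, ordered by structural class; each dot is 1 of 15 libraries and each bar the mean. Col4a1 and Col4a2 stand highest with tight dots, while Col1a1 spreads from 3.55 to 74.2 RPKM.

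Summed by class, basement membrane chains made up a mean of 38.7% of collagen RPKM, with a range of 15.4% to 47.7% over the libraries. Fibril-forming chains took 29.2%, with a range of 23.3% to 61.9%. Beaded-filament type VI chains took 12.4%, the fibril-associated types 8.63%, type VII and the multiplexins 4.46% each, and every other class at most 0.908%. The lowest basement membrane share and the highest fibril-forming share both came from maternal exercised library 3. Among the less abundant fibril-forming chains, Col5a1 and Col5a2, which nucleate fibrils and limit their width, averaged 2.61 and 1.96 RPKM. Col11a2 and Col11a1, chains of the cartilage-rich type XI, averaged 1.80 and 0.176 RPKM. Col24a1 and Col27a1, fibrillar chains first known from developing bone and cartilage, averaged 1.51 and 0.210 RPKM.

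The remaining members were scarcer. Col6a2 averaged 3.90 RPKM, Col6a3 2.02 and the related Col6a6 0.140. Of the other type IV chains, Col4a5 averaged 0.530, Col4a4 0.244, Col4a3 0.242 and Col4a6 0.0640 RPKM. Among the fibril-associated types, Col20a1 averaged 1.78, Col16a1 1.008, Col14a1 0.573, Col12a1 0.391, Col9a1 0.383, Col9a2 0.180 and Col19a1 0.126 RPKM. The multiplexins Col15a1 and Col18a1 averaged 2.70 and 2.37 RPKM, and the transmembrane types Col23a1 and Col13a1 0.671 and 0.358 RPKM. Col8a1 and Col8a2 of the short-chain network averaged 0.631 and 0.413 RPKM, Col28a1 0.371 and Col26a1 0.0667 RPKM. The 7 members under the minimum were Col2a1 at 3.05 to 19.2 normalised counts, Col6a4 at 0 to 14.1, Col6a5 at 0 to 21.4, Col9a3 at 0 to 12.3, Col10a1 at 0 to 5.10, Col17a1 at up to 14.05 and Col25a1 at 1.21 to 11.2. Col2a1, Col9a3 and Col10a1 are cartilage collagens, Col17a1 belongs to the hemidesmosomes of skin, and Col25a1 acts where motor axons reach developing muscle.

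The 2 leading genes, Col4a1 (ENSMUSG00000031502, chr8:11198423-11312826, minus strand, GRCm38) and Col4a2 (ENSMUSG00000031503, chr8:11312805-11449287, plus strand), lie head to head and are read away from each other. Their annotated starts are 21 bases apart, so that the genes overlap by 22 bases. The promoter window of Col4a1, from 250 bases before to 50 bases after its RefSeq start (GRCm38.p6, chr8:11312777-11313076, minus strand), is shown because it is shared: the 78 bases in capitals are also, on the other strand, part of the Col4a2 window at chr8:11312555-11312854.
Col4a1 promoter: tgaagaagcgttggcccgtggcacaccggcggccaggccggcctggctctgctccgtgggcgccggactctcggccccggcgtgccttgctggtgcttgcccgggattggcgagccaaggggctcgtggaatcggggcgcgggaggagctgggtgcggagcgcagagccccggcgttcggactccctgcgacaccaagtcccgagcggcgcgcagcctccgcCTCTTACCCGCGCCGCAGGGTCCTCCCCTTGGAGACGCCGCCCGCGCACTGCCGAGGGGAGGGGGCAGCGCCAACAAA

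For Col4a1 the normalised counts were 3201, 4829 and 2968 in control, 3238, 3911 and 5570.4 in maternal sedentary, 3723, 2999 and 4141 in maternal exercised, 3499, 2843 and 4759 in paternal sedentary and 3989, 3958 and 3492 in paternal exercised libraries. Col4a2 stood at 2756, 3796 and 2406 normalised counts in control, at 2611, 2996 and 4223 in maternal sedentary, at 3099, 2459 and 3185 in maternal exercised, at 2616, 2322 and 3657 in paternal sedentary and at 3053, 2902 and 2738 in paternal exercised muscle. The groups overlapped throughout for both genes, and the highest library of each was maternal sedentary 3. The ratio of Col4a1 to Col4a2 per length had a median of 1.13 and stayed between 1.03 and 1.21, a coefficient of variation of 4.39% over 15 libraries. Across the 15 libraries the log2 values of the pair correlated at Pearson r = 0.98 (permutation p = 1e-05, the smallest that 100000 resamples can give) and Spearman rho = 0.95 (permutation p = 1e-05). The Benjamini-Hochberg (BH) adjusted p over the 11 chain pairs compared was 3.67e-05 for both. Without the 2 libraries farthest from the median of Col4a1, r was 0.96, and for deviations from the group means it was 0.99. The libraries share a depth scaling, which is common to both genes.

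The other head-to-head type IV pairs did not move together as tightly. Col4a3 and Col4a4, whose chains join Col4a5 in the basement membrane of the kidney glomerulus, start 72 bases apart on chromosome 1. The normalised counts of Col4a3 were 89.4, 120.2 and 44.5 (control), 44.7, 51.9 and 65.9 (maternal sedentary), 24.4, 41.3 and 56.3 (maternal exercised), 49.9, 53.3 and 54.1 (paternal sedentary) and 39.7, 48.3 and 39.9 (paternal exercised). Control libraries 1 and 2 were the highest of the 15, and control library 3 lay among the other groups. Col4a3 and Col4a4 correlated at r = 0.59 (permutation p = 0.0345, BH p = 0.0475) and rho = 0.39 (permutation p = 0.158, BH p = 0.193), and r was -0.08 without control library 2 and maternal exercised library 1, so the relation rests on those libraries. Col4a5 and Col4a6, 1309 bases apart on the X chromosome, correlated at r = 0.30 (permutation p = 0.281, BH p = 0.281) and rho = 0.32 (permutation p = 0.242, BH p = 0.267). Both of these pairs have low counts, with Col4a6 averaging 11.5 normalised counts.

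**Figure D2:**
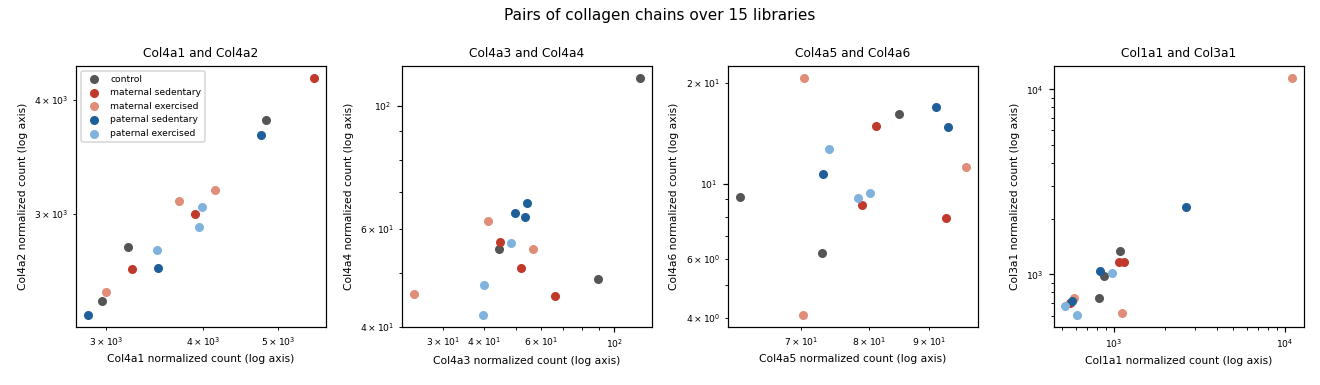
Normalised counts of paired chains in the 15 libraries (log axes), coloured by group, for Col4a1 with Col4a2, Col4a3 with Col4a4, Col4a5 with Col4a6, and Col1a1 with Col3a1. The Col4a1 and Col4a2 points lie along a line (r = 0.98), whereas 1 maternal exercised library lies far from the other 14 in the plot of Col1a1 and Col3a1.

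Type I and type III chains build the collagen fibrils. Col1a1 (ENSMUSG00000001506, chr11:94936224-94953042, plus strand) and Col1a2 (ENSMUSG00000029661, chr6:4504814-4541544, plus strand) encode the 2 chains of type I, and Col3a1 (ENSMUSG00000026043, chr1:45311538-45349706, plus strand) encodes type III, which joins type I in the same fibrils. The windows around the RefSeq starts of Col1a2 (chr6:4505368-4505667, plus strand) and Col3a1 (chr1:45311288-45311587, plus strand) are shown since these genes had the same library far above the rest. Capitals mark CCAAT or its reverse complement, a motif bound by the factor NF-Y, which the Col1a2 window holds 2 times and the Col3a1 window does not hold.
Col1a2 promoter: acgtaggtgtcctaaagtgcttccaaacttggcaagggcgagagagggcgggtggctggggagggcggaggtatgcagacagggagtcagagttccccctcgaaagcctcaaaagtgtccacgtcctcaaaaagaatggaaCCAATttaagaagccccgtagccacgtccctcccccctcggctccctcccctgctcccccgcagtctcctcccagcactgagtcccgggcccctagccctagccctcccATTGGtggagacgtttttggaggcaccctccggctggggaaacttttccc
Col3a1 promoter: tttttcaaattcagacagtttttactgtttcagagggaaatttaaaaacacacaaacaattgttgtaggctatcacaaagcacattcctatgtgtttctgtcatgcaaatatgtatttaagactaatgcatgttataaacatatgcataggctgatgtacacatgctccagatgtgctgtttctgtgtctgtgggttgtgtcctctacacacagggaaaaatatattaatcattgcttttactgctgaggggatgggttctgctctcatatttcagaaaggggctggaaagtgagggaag

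The 30 tested members with a RefSeq window had 33 windows. On both strands, CCAAT was present in 10 of these 33, against 37.4% of 32851 windows of all genes. The TATA-box letters TATAAA were present in 3 of 33, against 13.6%, and the Sp1-type letters GGGCGG in 20 of 33, against 35.7%. Col3a1 had 1 TATAAA and no GGGCGG, and Col1a2 had 2 GGGCGG and no TATAAA. A match to these motifs is only a description of the sequence.

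Col1a1 had a normalised count of 879.9, 1086 and 823 in the control offspring, 556, 1147 and 1065 in the maternal sedentary, 1119.6, 585 and 11030.5 in the maternal exercised, 827, 570.4 and 2627 in the paternal sedentary and 978, 522 and 611 in the paternal exercised offspring. For Col1a2 the normalised counts were 1341, 1748 and 1157 in control, 845, 1522 and 1564 in maternal sedentary, 1588, 874 and 9644 in maternal exercised, 1145, 870.1 and 2585 in paternal sedentary and 1432, 910.5 and 945 in paternal exercised libraries. Col3a1 stood at 987, 1337 and 743 normalised counts in control, at 701, 1166 and 1170.3 in maternal sedentary, at 617, 746 and 11456 in maternal exercised, at 1041, 721 and 2327 in paternal sedentary and at 1012, 676 and 603 in paternal exercised muscle. For all 3 genes maternal exercised library 3 stood far above the other 14 libraries and paternal sedentary library 3 came next, while the other libraries of every group overlapped. Against the median of the other 14 libraries, maternal exercised library 3 was 13.2-fold higher for Col3a1, 12.9-fold for Col1a1 and 7.72-fold for Col1a2. Because 1 library carried this, the maternal exercised mean of Col3a1, 4273 ± 6221 (SD, n = 3), had an SD larger than itself, against 1022 ± 299 in control offspring.

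**Figure D3:**
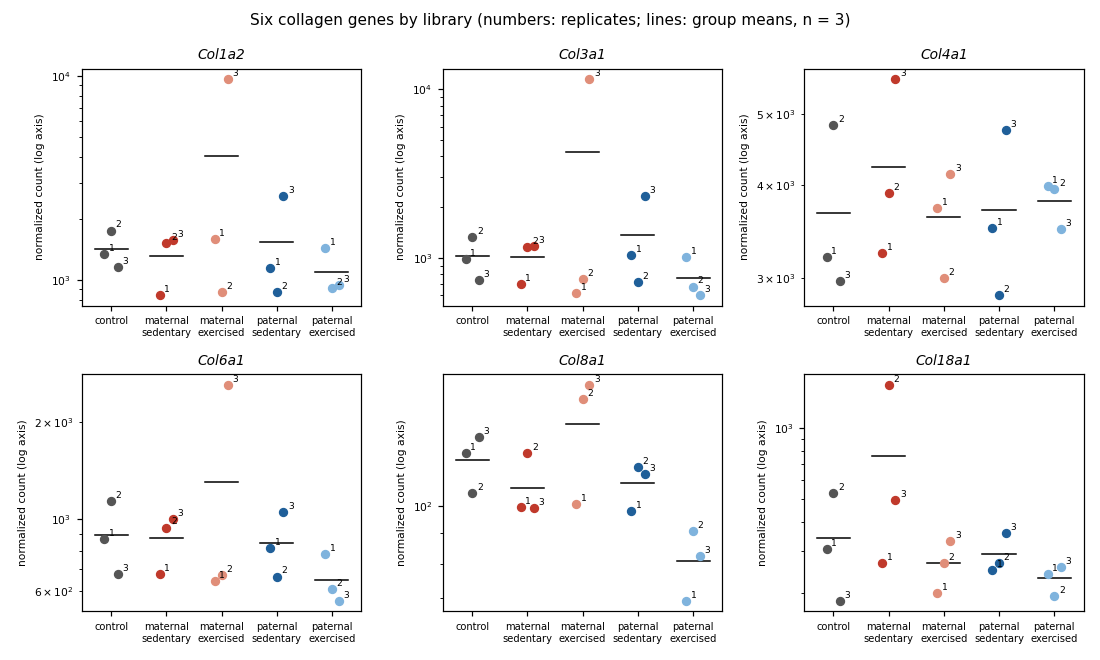
Normalised counts (log axis) of Col1a2, Col3a1, Col4a1, Col6a1, Col8a1 and Col18a1 by group; each digit is the replicate of 1 library and each line a group mean (n = 3). Maternal exercised replicate 3 stands apart for Col1a2, Col3a1 and Col6a1 but not for Col4a1, maternal sedentary replicate 2 stands apart for Col18a1, and the paternal exercised libraries are the 3 lowest for Col8a1.

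Type I and type III chains moved together beyond that library. Col1a1 and Col1a2 correlated at r = 0.99 (permutation p = 1e-05) and rho = 0.95 (permutation p = 1e-05), each with a BH p of 3.67e-05 over the 11 pairs, and r was 0.98 without maternal exercised library 3 and paternal sedentary library 3. For Col1a1 and Col3a1, r was 0.96 (permutation p = 7e-05, BH p = 0.000141) and rho 0.72 (permutation p = 0.00334, BH p = 0.00612). Without the same 2 libraries their r was 0.67 (permutation p = 0.0156, BH p = 0.0245). Col3a1 and its chromosome 1 neighbour Col5a2, separated by 24614 bases, correlated at r = 0.96 (permutation p = 9e-05, BH p = 0.000141) and rho = 0.70 (permutation p = 0.00433, BH p = 0.0068), and at r = 0.65 without those libraries. The type V chains Col5a1 and Col5a2 had r = 0.93 (permutation p = 8e-05, BH p = 0.000141) and rho = 0.78 (permutation p = 0.0011, BH p = 0.00242), with r = 0.80 without control library 2 and maternal exercised library 3. The per-length ratio of Col1a1 to Col1a2 had a median of 1.29 and a range of 1.09 to 2.17, and with the longest transcript as length the median was 0.615, so its absolute value cannot be read as a chain ratio.

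The library with most fibril-forming collagen was not high in all classes. In maternal exercised library 3, 13 of the 37 members were at least 2-fold above the median of the other 14 libraries, against 2.56% of all genes, and 16 members had their highest value there, against 8.40% of all genes. Fibril-forming genes had a median fold of 4.77, with 6 of 10 at 2-fold or more. Beyond types I and III these were Col11a1 at 7.40-fold, Col5a2 at 5.25-fold and Col5a1 at 4.30-fold. Type VI beaded-filament genes had a median of 3.03, with Col6a2 at 4.08-fold, Col6a1 at 3.57-fold and Col6a3 at 2.49-fold. Of the fibril-associated genes, Col12a1 and Col14a1, which coat fibril surfaces, were at 4.84-fold and 3.94-fold, and Col16a1 was at 3.29-fold.

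Type IV genes lay at 0.988-fold to 1.23-fold in the same library. Col22a1 was at 0.712-fold, Col15a1 at 0.756-fold, Col7a1 at 1.10-fold, Col24a1 at 1.00-fold and Col5a3 at 1.32-fold. Fibril-forming RPKM summed to 188 in maternal exercised library 3 and to 21.8 to 53.5 in the other 14, of which paternal sedentary library 3 was the highest. Of the tested pathway genes, 6 of 10 of collagen breakdown and its inhibitors, 3 of 11 of processing and cross-linking, 3 of 9 small leucine-rich proteoglycans and 0 of 19 of folding and modification were at least 2-fold above there. The breakdown genes include Mmp13, with 918 normalised counts in this library and 0 to 16.7 in the others, which reached the minimum of 10 through this library alone. Without it the count is 5 of 9. The examples were chosen after their values were seen. Kera, a fibril-binding proteoglycan, was 6.05-fold above the median of the other 14 libraries, the collagen-degrading enzymes Mmp9, Mmp14 and Ctsk were 5.50-fold, 5.08-fold and 4.79-fold, and the cross-linking enzyme Lox was 2.62-fold. Serpinh1, the collagen chaperone, was 1.60-fold.

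Markers of other cell types were measured in the same libraries. The 8 tendon markers summed to 353 CPM in maternal exercised library 3, 2.07-fold above the median of the others. Maternal exercised library 1 had the highest tendon sum at 415 CPM. There Col3a1 lay at 0.617-fold of the median of the other 14 libraries, Col1a1 at 1.31-fold and Col1a2 at 1.27-fold. Macrophage markers summed to 35.3 CPM in library 3, 2.36-fold above the median, and to 42.8 CPM in the highest maternal sedentary library. Fibroblast markers summed to 642 CPM, 1.07-fold, within the range of 390 to 893 CPM of the others, but Gsn, at a mean of 11716 normalised counts, makes up most of that sum and was at 0.987-fold. The other 7 fibroblast markers lay at 1.20-fold (Cd34) to 3.45-fold (Lum), with Mfap5 at 1.71-fold and Pdgfra at 1.60-fold. Of the tendon markers 7 of 8 lay above 1-fold, with Scx at 0.782-fold, and of the macrophage markers all 7 tested did. The 7 bone and cartilage markers summed to 6.26 CPM in maternal exercised library 3, 0.773-fold of the median of the others. Of the 2 tested ones, 0 lay above 1-fold there. Bglap was at 0 in every library, and Acan alone was picked for its value, 28.2 normalised counts in maternal exercised library 3 against 0 to 5.05 elsewhere. The part of fibroblasts, tendon, macrophage or cartilage cells in the collagen values was not tested.

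**Figure D4:**
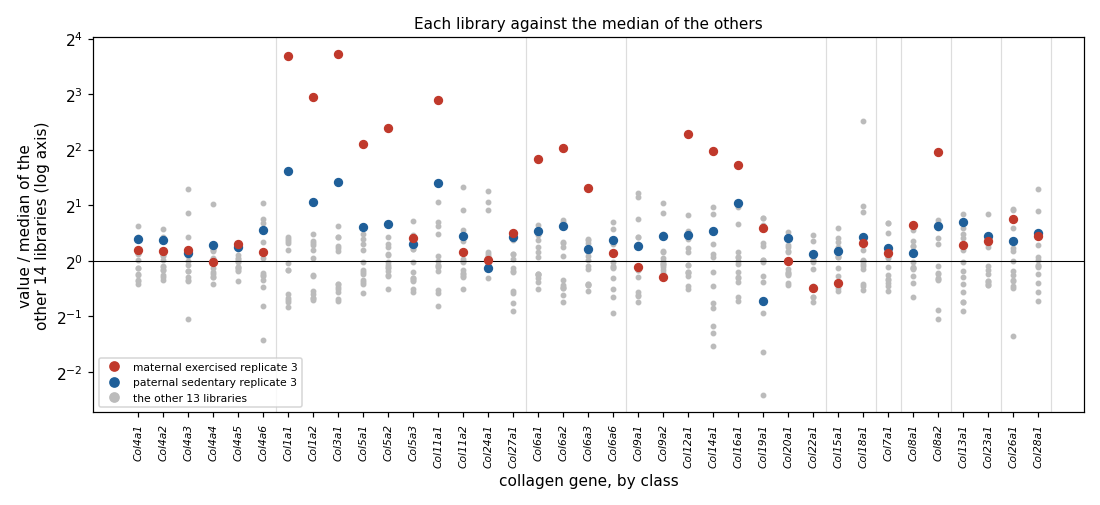
Each library's normalised count over the median of the other 14 libraries (log2 axis) for the 37 collagen genes; maternal exercised replicate 3 is red, paternal sedentary replicate 3 blue and the other 13 libraries grey. Red lies up to 13.2-fold high for fibril-forming genes and near 1-fold for type IV genes.

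Other libraries had fewer members at 2-fold or more above the median of the rest. Paternal sedentary library 3 had 5 members at 2-fold or more, against 0.911% of all genes. They were Col1a1 at 3.08-fold, Col3a1 at 2.69-fold, Col11a1 at 2.62-fold, Col1a2 at 2.07-fold and Col16a1 at 2.06-fold. All 5 were also at 2-fold or more in maternal exercised library 3. Control library 2 had 5 as well, against 4.05% of all genes, namely Col4a3 and Col28a1 at 2.45-fold, Col9a1 at 2.22-fold, Col9a2 at 2.06-fold and Col4a4 at 2.03-fold. Maternal sedentary library 2 had 2 members, against 4.07%, with Col18a1 at 5.69-fold and Col24a1 at 2.08-fold. Maternal sedentary library 3 had 2 members, against 3.84%, with Col11a2 at 2.51-fold and Col24a1 at 2.40-fold. In both maternal sedentary libraries the count of members was near the share of all genes. The median ratio of highest to lowest library over the 37 members was 3.55, and 2.67 without maternal exercised library 3.

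The type VI genes Col6a1, Col6a2 and Col6a3 were high in the same library as type I, and Col6a6 and type VII were not. The normalised counts of Col6a1 were 871, 1140.4 and 676 (control), 677, 943 and 999.5 (maternal sedentary), 643, 673 and 2605 (maternal exercised), 815, 665 and 1056 (paternal sedentary) and 782, 609 and 559.7 (paternal exercised). Col6a2 had a normalised count of 710.2, 953 and 481 in the control offspring, 465, 723 and 926 in the maternal sedentary, 462, 512 and 2331 in the maternal exercised, 675, 472 and 875 in the paternal sedentary and 629, 428 and 391 in the paternal exercised offspring. Both genes, whose loss causes congenital muscular dystrophy in people, were highest in maternal exercised library 3 and overlapped between the groups otherwise. They correlated at r = 0.99 (permutation p = 1e-05, BH p = 3.67e-05) and rho = 0.97 (permutation p = 1e-05, BH p = 3.67e-05), and at r = 0.98 without control library 2 and maternal exercised library 3. Col6a1 and Col6a3 had r = 0.93 (permutation p = 3e-05, BH p = 8.25e-05) and rho = 0.84 (permutation p = 0.00019, BH p = 0.000522), and r = 0.79 without the same libraries. For Col7a1 the normalised counts were 1747, 1747 and 1054 in control, 1146, 957 and 1265 in maternal sedentary, 897, 1542 and 1203 in maternal exercised, 779.7, 828 and 1277 in paternal sedentary and 913, 862 and 1136 in paternal exercised libraries. Type VII forms the anchoring fibrils beneath epithelia, and here control libraries 1 and 2 were the highest, with control library 3 inside the range of the other groups.

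The fibril-associated genes were led by Col22a1. Col22a1 stood at 1502, 1184 and 1243 normalised counts in control, at 1066, 863 and 1617 in maternal sedentary, at 1179.7, 1265 and 842 in maternal exercised, at 708, 751 and 1274 in paternal sedentary and at 1159, 751 and 1242 in paternal exercised muscle. The highest value was in a maternal sedentary and the lowest in a paternal sedentary library, and the groups overlapped. The normalised counts of Col20a1 were 232, 277 and 155 (control), 219, 263 and 236 (maternal sedentary), 179, 177 and 202 (maternal exercised), 174, 216 and 259 (paternal sedentary) and 180.5, 187 and 157 (paternal exercised). All 3 maternal exercised libraries lay below the 3 maternal sedentary ones. Exons of Col20a1 overlap those of another annotated gene on the same strand, BX649560.1. How reads shared by both genes were counted is not known here, so the level of Col20a1 may be affected.

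Multiplexins of the basement membrane zone are Col15a1, needed for stable muscle fibres and capillaries, and Col18a1, whose end is released as endostatin. Col15a1 had a normalised count of 399, 576 and 299 in the control offspring, 365, 399.9 and 510.0 in the maternal sedentary, 274, 404 and 302 in the maternal exercised, 454, 330.4 and 430.2 in the paternal sedentary and 482, 284 and 299 in the paternal exercised offspring. For Col18a1 the normalised counts were 306, 531 and 185 in control, 267, 1518 and 493 in maternal sedentary, 199, 268 and 331 in maternal exercised, 249, 267 and 357 in paternal sedentary and 241, 194 and 257 in paternal exercised libraries. The groups overlapped for both, and Col18a1 was far highest in maternal sedentary library 2, the library with 3817 CPM of hepatocyte markers. Whether those cells or their RNA carry the Col18a1 value was not tested. The pair correlated at r = 0.47 (permutation p = 0.0683, BH p = 0.0835) and rho = 0.58 (permutation p = 0.026, BH p = 0.0357), and at r = 0.35 without control library 2 and maternal exercised library 1.

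Short-chain collagens form the open networks of vessel walls and the cornea. Col8a1 stood at 123, 105 and 131 normalised counts in control, at 99.7, 123 and 99.4 in maternal sedentary, at 100.8, 152 and 160.0 in maternal exercised, at 98.0, 116 and 113 in paternal sedentary and at 69.2, 90.7 and 82.4 in paternal exercised muscle. The 3 paternal exercised libraries were the lowest of the 15, and every other group overlapped with its neighbours. The normalised counts of Col8a2 were 17.3, 42.4 and 39.2 (control), 47.5, 30.8 and 19.5 (maternal sedentary), 52.9, 32.8 and 123 (maternal exercised), 28.5, 29.1 and 49.2 (paternal sedentary) and 28.4, 50.6 and 30.6 (paternal exercised). Maternal exercised library 3 was the highest, and the groups overlapped. Col8a1 and Col8a2 correlated at r = 0.32 (permutation p = 0.247, BH p = 0.272) and rho = 0.25 (permutation p = 0.361, BH p = 0.361).

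The transmembrane collagens were low. Col13a1 had a normalised count of 35.6, 51.5 and 22.3 in the control offspring, 22.4, 61.5 and 47.5 in the maternal sedentary, 25.4, 32.8 and 41.7 in the maternal exercised, 39.2, 45.2 and 55.1 in the paternal sedentary and 30.6, 20.02 and 28.03 in the paternal exercised offspring. All 3 paternal exercised libraries lay below the 3 paternal sedentary ones. For Col23a1 the normalised counts were 67.1, 140.4 and 97.0 in control, 99.7, 77.3 and 106 in maternal sedentary, 67.2, 65.6 and 100.3 in maternal exercised, 64.2, 92.9 and 107 in paternal sedentary and 63.6, 73.0 and 79.8 in paternal exercised libraries. Its highest library was control 2, and the groups overlapped. Col28a1 stood at 33.5, 84.8 and 36.5 normalised counts in control, at 24.2, 33.4 and 42.1 in maternal sedentary, at 48.9, 34.0 and 47.3 in maternal exercised, at 30.3, 21.8 and 49.2 in paternal sedentary and at 27.2, 35.3 and 64.5 in paternal exercised muscle. Type XXVIII surrounds peripheral nerves, and control library 2 was the highest. The normalised counts of Col26a1 were 11.2, 9.09 and 16.02 (control), 10.2, 20.2 and 20.5 (maternal sedentary), 9.16, 9.71 and 18.03 (maternal exercised), 12.5, 12.1 and 13.8 (paternal sedentary) and 4.54, 8.24 and 8.49 (paternal exercised). The paternal exercised libraries were the 3 lowest of the 15, at counts where single reads matter.

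Differences between groups were fitted with limma on log2(normalised count + 1), a scale on which changes of low genes are understated, and p-values were adjusted by BH over 13499 genes. No collagen gene passed an adjusted p of 0.05 in any of the 8 tests (0% of all genes in each) with all 15 libraries, and none passed with edgeR, DESeq2 or limma voom on the recovered reads. For Col3a1 no DESeq2 value was available in any contrast, so DESeq2 could not have called it. Over all genes edgeR and limma voom called none, and DESeq2 called 18 genes in maternal sedentary against control, 60 in maternal exercised against maternal sedentary, 1 in paternal exercised against paternal sedentary, 65 in paternal exercised against control and 186 for any difference among groups. Differences below are therefore values. Those of single genes in the main fit come with their standard error (SE) and BH adjusted p, except for Col3a1. The 4 comparisons with control share the control libraries, and each comparison of exercise shares its sedentary libraries with another, so they are not independent of each other.

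With a sedentary dam on the high-fat diet, collagen means lay on both sides of those of control offspring, and no gene passed the test. The median log2 difference of the 37 members, maternal sedentary minus control, was 0.04, against 0.01 for all genes. Of the members, 17 had a lower mean, against 47% of all genes, and none had an unadjusted p under 0.05, against 4.04% of all genes. The smallest p-values were those of Col18a1 and Col7a1. Col18a1 averaged 759 ± 667 normalised counts (SD, n = 3) against 341 ± 176 in control, a log2 difference of 0.91 ± 0.48 (SE, limma adjusted p = 1.00). Without the 4 libraries with hepatocyte markers over 100 CPM it was 0.17, and without maternal sedentary library 2 alone 0.22. It was 0.54 without control library 3 and 1.47 without maternal sedentary library 1. Col7a1 averaged 1123 ± 155 against 1516 ± 400.2, a difference of -0.40 ± 0.24 (limma adjusted p = 1.00). It was -0.65 without control library 3 and -0.24 without the hepatocyte-marked libraries. The count of members with a lower mean was 8 without control library 2 and 11 without maternal sedentary library 1. Their median was 0.21 and 0.22 in these cases, and -0.15 without control library 3.

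Running by the dam on the high-fat diet was compared within the maternal arm. Of the 37 members, 21 had a lower mean in maternal exercised than in maternal sedentary offspring, against 49.6% of all genes, and the median difference was -0.08, against 0.0024 for all genes. Fibril-forming genes had a median difference of 0.39, with 6 of 10 higher, and the fibril-associated genes one of -0.25, with 6 of 8 lower. Without maternal exercised library 3 only 1 of 10 fibril-forming genes was higher, with a median of -0.53. The unadjusted p was under 0.05 for 3 members, against 9.54% of all genes, and all 3 were lower, against 5.33%. Col24a1 had a normalised count of 405, 211 and 210.1 in the control offspring, 211, 447 and 515 in the maternal sedentary, 179, 239 and 219 in the maternal exercised, 225, 228 and 202 in the paternal sedentary and 208, 199 and 233 in the paternal exercised offspring. Maternal sedentary libraries 2 and 3 were the highest of the 15, and maternal sedentary library 1 lay among the exercised ones. The difference of Col24a1 was -0.79 ± 0.29 (SE, limma adjusted p = 0.516).

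Col24a1 rests on the choice of libraries. Its difference was -1.18 without maternal sedentary library 1, where it was the 1 member called (limma adjusted p = 0.0422, with 109 genes called in all), and -0.0045 without the hepatocyte-marked libraries, which leaves 1 maternal sedentary library whose spread is taken from the other groups. Col18a1 differed by -1.16 ± 0.48 (limma adjusted p = 0.516), but by -0.48 without maternal sedentary library 2 and by -0.04 without the hepatocyte-marked libraries. Col5a3, the third chain of type V, averaged 923 ± 272 against 1288 ± 219.6 normalised counts, a difference of -0.51 ± 0.23 (limma adjusted p = 0.516), and -0.27 without the hepatocyte-marked libraries. Col20a1 was the 1 member whose libraries did not overlap with the exercised ones lower, against 8.61% of all genes. Col3a1 differed by 0.82, and by -0.54 without maternal exercised library 3. Without that library the median of the members was -0.39 and 30 of 37 had a lower mean, and without the hepatocyte-marked libraries the median was 0.15.

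With the title code as a term, a fit chosen after the data were seen, this comparison becomes maternal exercised library 3 against the 3 maternal sedentary libraries, since the other exercised libraries share no code with them. In it the median of the members was 0.18 with 10 lower, Col5a3 was at -0.051, and 5 members were called, all fibril-forming. They were Col1a1 at 3.65 (limma adjusted p = 0.0101), Col3a1 at 3.54 (limma adjusted p = 0.00607), Col1a2 at 2.93 (limma adjusted p = 0.0154), Col5a2 at 2.15 (limma adjusted p = 0.00607) and Col5a1 at 1.78 (limma adjusted p = 0.0283). These calls describe 1 exercised library, which is assumed to vary like the others.

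Against control, the maternal exercised offspring had 20 members with a lower mean, against 47.4% of all genes, and a median difference of -0.02, against 0.02 for all genes. All 4 type VI genes had a higher mean, with a median of 0.22, and fibril-forming genes had a median of 0.53. Without maternal exercised library 3 only 1 of 4 and 1 of 10 were higher, with medians of -0.40 and -0.35. The unadjusted p was under 0.05 for 2 members, against 8.76% of all genes. Col4a3 averaged 40.7 ± 15.96 against 84.7 ± 38.1 normalised counts, a log2 difference of -1.005 ± 0.34 (SE, limma adjusted p = 0.566), and -0.70 without control library 2. For Col11a1 the normalised counts were 29.5, 18.2 and 47.2 in control, 27.9, 32.5 and 49.7 in maternal sedentary, 64.1, 30.4 and 228 in maternal exercised, 31.2, 29.9 and 80.7 in paternal sedentary and 43.1, 21.2 and 22.1 in paternal exercised libraries. Maternal exercised library 3 was the highest, and the other libraries of that group lay among the rest. Col11a1 differed by 1.35 ± 0.60 (limma adjusted p = 0.566), and by 0.57 without maternal exercised library 3. Col3a1 differed by 0.81, and by -0.55 without that library, where the median of the members was -0.30 and 33 had a lower mean. Without control library 2 only 11 had a lower mean and the median was 0.17, and without control library 3 it was -0.26.

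A sire on the high-fat diet, with a sedentary lean dam, gave offspring with 22 members at a lower mean than control, against 49% of all genes, and a median difference of -0.03, against 0.006 for all genes. The unadjusted p was under 0.05 for 2 members, against 2.87% of all genes, both lower, against 1.41%. Col7a1 averaged 962 ± 274 against 1516 ± 400.2 normalised counts, a log2 difference of -0.65 ± 0.24 (SE, limma adjusted p = 0.920), with a range of -0.90 to -0.52 when 1 library was left out in turn and -0.40 without the hepatocyte-marked libraries. Col22a1 averaged 911 ± 315 against 1309.7 ± 169, a difference of -0.57 ± 0.26 (limma adjusted p = 0.920). The highest paternal sedentary library overlapped with control for both genes. With the title code as a term Col22a1 was at -0.16. Without control library 2 the members with a lower mean were 9 and their median was 0.16, and without paternal sedentary library 3 the median was -0.21. Col3a1, at 0.28, was at -0.20 without paternal sedentary library 3.

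With running by the lean dam in the paternal arm, most collagen means were lower, although no gene passed the test. In paternal exercised offspring 27 of 37 members had a lower mean than in paternal sedentary offspring, against 48.2% of all genes, and the median difference was -0.28, against 0.01 for all genes. By library, the median log2 deviation of the members from their means over 15 libraries was -0.18, -0.33 and -0.32 in paternal exercised offspring. In paternal sedentary offspring it was -0.14, -0.19 and 0.33, so the groups overlapped. Its pooled SD between replicates over the 5 groups was 0.28. All 10 fibril-forming genes had a lower mean, with a median of -0.32, as did 3 of 4 type VI genes and both multiplexins. Type IV genes had a median of -0.22, with 4 of 6 lower, and the fibril-associated genes split 4 to 4 with a median of -0.04. The libraries of the groups did not overlap, with the exercised ones lower, for Col4a3, Col4a4, Col8a1, Col13a1, Col14a1, Col16a1, Col26a1 and Col27a1, which is 8 of 37 members against 5.5% of all genes.

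The unadjusted p was under 0.05 for 3 members of this comparison, against 3.76% of all genes, and all were lower, against 1.93%. Col8a1 averaged 80.8 ± 10.8 against 109 ± 9.80 normalised counts, a log2 difference of -0.44 ± 0.19 (SE, limma adjusted p = 0.991). Col27a1 stood at 65.0, 65.7 and 43.6 normalised counts in control, at 62.4, 80.9 and 82.1 in maternal sedentary, at 56.0, 34.0 and 84.5 in maternal exercised, at 57.9, 77.6 and 80.7 in paternal sedentary and at 37.5, 42.4 and 55.2 in paternal exercised muscle. The 3 paternal exercised libraries lay below the 3 paternal sedentary ones, and maternal exercised library 2 was the lowest of the 15. Col27a1 differed by -0.67 ± 0.29 (limma adjusted p = 0.991), and Col13a1 by -0.81 ± 0.37 (limma adjusted p = 0.991). Leaving out 1 library in turn kept all 3 lower, at -0.52 to -0.33 for Col8a1, -0.82 to -0.55 for Col27a1 and -0.93 to -0.64 for Col13a1.

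Paternal sedentary library 3 carried much of the median. Without it the median of the members was -0.09, with 23 of 37 lower, against 51.4% of all genes, and Col3a1 differed by -0.22 in place of -0.69. The fibril-forming genes were then lower in 7 of 10, with a median of -0.017. With the title code as a term, which sets paternal exercised library 2 against paternal sedentary libraries 1 and 2, the median was -0.17 with 26 lower, and Col8a1 was at -0.23. Fibroblast markers were lower in 8 of 8 genes with a median of -0.19, endothelial markers in 7 of 8 with -0.20, smooth muscle and pericyte markers in 7 of 8 with -0.37, and macrophage markers in 7 of 7 with -0.39. Without paternal sedentary library 3 they were lower in 7 of 8, 7 of 8, 8 of 8 and 6 of 7. With all libraries, muscle fibre markers were lower in 5 of 9 with a median of -0.26, tendon markers in 6 of 8 and Schwann cell markers in 5 of 8. Bone and cartilage markers were lower in 2 of 2 and hepatocyte markers in 7 of 15. Adipocyte markers went the other way, higher in 5 of 6 with a median of 0.25. Over all genes 48.2% were lower, and 51.4% without paternal sedentary library 3. The part of these cell types in the lower collagen means was not tested.

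Against control, the paternal exercised offspring had 30 of 37 members with a lower mean, against 50.1% of all genes, and a median difference of -0.34, against -0.00069 for all genes. The median deviation by library was 0.013, 0.41 and -0.32 in control offspring, so control library 3 lay among the paternal exercised libraries. All 10 fibril-forming genes had a lower mean, with a median of -0.33, whereas type IV genes split 3 to 3 with a median of 0.02. The unadjusted p was under 0.05 for 3 members, against 13.7% of all genes, and all were lower, against 5.62%. Col8a1 (chr16:57624258-57754737, minus strand) averaged 80.8 ± 10.8 against 119.6 ± 13.2 normalised counts, a log2 difference of -0.56 ± 0.19 (SE, limma adjusted p = 0.291). Col7a1 averaged 970.4 ± 146 against 1516 ± 400.2, a difference of -0.62 ± 0.24 (limma adjusted p = 0.312). Col4a3 averaged 42.6 ± 4.89 against 84.7 ± 38.1, a difference of -0.87 ± 0.34 (limma adjusted p = 0.312), and -0.56 without control library 2.

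Col8a1, Col16a1 and Col26a1 did not overlap between paternal exercised and control libraries, which is 3 of 37 members against 8.7% of all genes. The median of the members was -0.17 without control library 2, with 27 lower, and type IV genes then had a median of 0.18. Markers of most other cell types also had lower means, while hepatocyte markers were higher in 12 of 15 with a median of 0.59. Smooth muscle and pericyte markers were lower in 7 of 8 genes with a median of -0.72 and Schwann cell markers in 8 of 8 with -0.68, against 50.1% of all genes. Without control library 2 these were 7 of 8 with -0.44 and 6 of 8 with -0.34, and their part was not tested. Between libraries that share a code, the median of the members was -0.46 for paternal exercised library 1 against control libraries 1 and 2, and -0.00053 for paternal exercised library 3 against control library 3, with no replicate check in either. With the code as a term in the fit it was -0.22 with 27 lower, and no member was called.

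**Figure D5:**
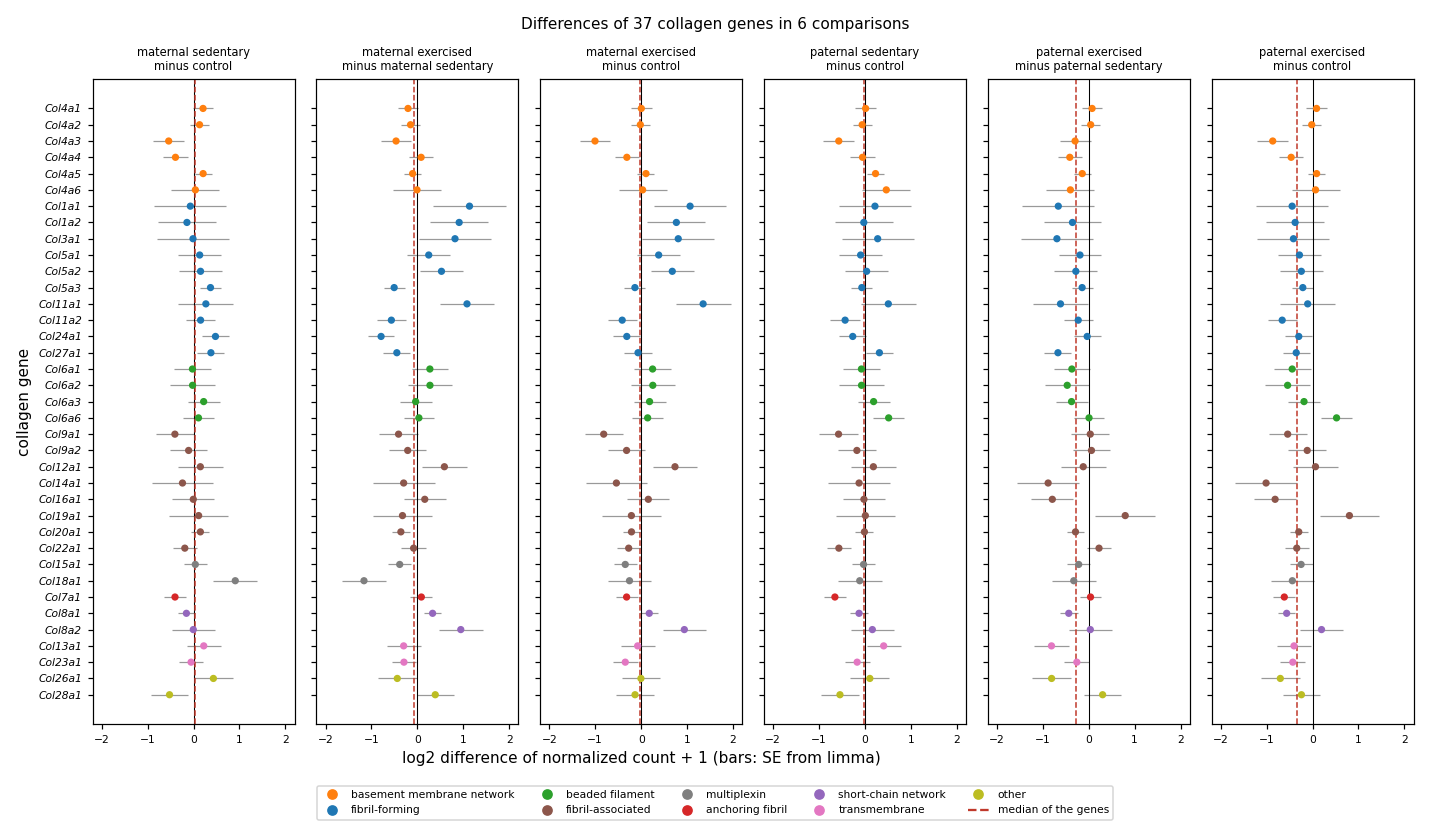
Log2 differences of the 37 collagen genes (points, with limma SE as bars) in the 6 comparisons of groups; the dashed red line is the median of the genes. The median lies at -0.28 and -0.34 in the panels of paternal exercised against paternal sedentary and against control, and between -0.08 and 0.04 in the others.

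Whether dam exercise differed between the arms was tested with an interaction term, maternal arm minus paternal arm. It was positive for all but 14 members, against 50.4% of all genes with a negative value, and had a median of 0.22, against -0.0018 for all genes. Type VI genes were positive in 4 of 4, and fibril-forming genes in 7 of 10 with a median of 0.62. Without maternal exercised library 3 the median of the members was -0.10 and 24 were negative, with type VI genes positive in 0 of 4 and fibril-forming genes in 4 of 10. Without the hepatocyte-marked libraries the median was 0.43 and 6 were negative, and without maternal sedentary library 1, paternal exercised library 1 or paternal sedentary library 3 the median was 0.10, 0.12 or 0.14. Only Col8a1 had an unadjusted p under 0.05, against 1.8% of all genes, and positively, against 1.05%, with an interaction of 0.77 ± 0.27 (SE, limma adjusted p = 0.999). It ranged from 0.64 to 0.98 when 1 library was left out in turn. Col11a1 followed at 1.70 ± 0.85 (limma adjusted p = 0.999), and was 0.92 without maternal exercised library 3 and 3.15 with the title code as a term.

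A test for any difference among the 5 groups gave an unadjusted p under 0.05 for 1 member, against 6.71% of all genes. This was Col8a1 again (limma adjusted p = 0.715), and Col24a1 followed (limma adjusted p = 0.715). In the order of group means Col8a1 ran from 138 ± 32.1 normalised counts in maternal exercised over 119.6 ± 13.2 in control, 109 ± 9.80 in paternal sedentary and 107 ± 13.6 in maternal sedentary to 80.8 ± 10.8 in paternal exercised offspring. The first 4 overlapped with one another, and only the last lay below all the others.

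Genes that make, trim, bind and degrade collagen were followed as 7 lists, and none of their genes was called in any comparison with limma. In maternal exercised against maternal sedentary offspring, 9 of the 10 tested genes of breakdown and its inhibitors had a higher mean, with a median difference of 0.41, and 8 of 9 small leucine-rich proteoglycans did, with 0.39, against 50.4% of all genes. Without maternal exercised library 3, and without Mmp13, only 3 of 9 breakdown genes were higher, with a median of -0.18, while 7 of 9 proteoglycans were, with 0.21. In paternal exercised against paternal sedentary offspring the breakdown genes were lower in 10 of 10, with a median of -0.24, and the processing and cross-linking genes in 8 of 11, with -0.28, against 48.2% of all genes. Without paternal sedentary library 3 they were lower in 8 of 10, with -0.12, and in 10 of 11, with -0.17. In the same comparison the 19 folding and modification genes split 9 to 10, the 6 receptors 3 to 3 and the 13 genes of TGF-beta signalling 6 to 7. Basement membrane partners were lower in 10 of 11 genes in paternal exercised against control offspring, with a median of -0.14, and in 6 of 11 without control library 2, with -0.016.

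The genes of smallest p in 6 of the lists were as follows. Loxl3, a lysyl oxidase that starts cross-links, differed by -0.83 ± 0.28 between paternal exercised and control offspring (SE, limma adjusted p = 0.291). P4ha1, which hydroxylates prolines so that the helix is stable, differed by 0.43 ± 0.15 (limma adjusted p = 0.296) there and by 0.26 without control library 2. In the same comparison the basement membrane linker Agrn differed by -0.35 ± 0.13 (limma adjusted p = 0.309), and the proteoglycan Podn by -0.65 ± 0.29 (limma adjusted p = 0.346), the latter by -0.40 without control library 2. Itgb1, the beta chain of collagen-binding integrins, differed by 0.37 ± 0.18 between maternal exercised and maternal sedentary offspring (limma adjusted p = 0.517), and by 0.24 without maternal sedentary library 3. For Fap, a protease of activated fibroblasts, the interaction was 1.35 ± 0.60 (limma adjusted p = 0.999), 0.73 without maternal sedentary library 3 and 0.65 without the hepatocyte-marked libraries.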

How the data were processed

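Quadriceps RNA was sequenced in 15 libraries, 3 in each of 5 groups taken from the labels. Per the labels' protocols these were stranded total RNA libraries after rRNA removal, read as 100 bp single ends. The submitters' processing notes name STAR 2.5.2b, featureCounts 1.5.2, DESeq2 1.11.8 and the mm10 build, and how the counting treated strand was not given in the sources used here. The deposited values are a signal made by the authors: gene counts divided by a size factor for each library, here called normalised counts. Whole reads were recovered from them, within a tolerance of 0.001 for 100% of values, and give the depth of each library, 18457663 to 26981745 reads. For the control library 2 the step was read in the same way. Replicates differed by a chi-square of 17.6 to 88.1 per degree of freedom, so none was a repeat of another.

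Symbols, lengths and positions came from GENCODE M21 (GRCm38), which matched 50462 of 50686 genes (99.6%), and promoter windows from RefSeq. Genes with a mean of at least 10 were tested, 13499 in all, and 37187 were not. Log2(normalised count + 1) was fitted over all 15 libraries with limma (trend, 1 coefficient for each group), and p-values were adjusted by the Benjamini-Hochberg method at 0.05. Contrasts, an interaction of exercise with arm and a test over all groups gave 8 tests. Correlations used 100000 resamples over 11 chain pairs. The procedure was tested on simulated data. Tools were limma 3.58.1, edgeR 4.0.16 and DESeq2 1.42.0 in R 4.3.3, with scipy 1.17.1, matplotlib 3.10.9, numpy 2.4.6 and pandas 2.3.3 in Python 3.11.15.

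Every tested member was named. Values in every library were given for the 2 members of highest mean in each class, for Col1a1, and for the 2 of smallest p in each comparison except where the class rule gave them already. Members with an unadjusted p under 0.05 and the gene of smallest p in each pathway list have a difference with its error. For Col3a1 the difference is given without its error, and it is left out for paternal exercised against control and for the interaction. The gene of 1 list is not reported here. The members and the lists were chosen with earlier results of these data known. Protein features were planned but not analysed here. Alternatives were edgeR, DESeq2 and limma voom on the recovered reads, other pseudocounts, filters, scalings and lengths, and leaving out each library. Those chosen after seeing the data left out the libraries with hepatocyte markers over 100 CPM or under 18000 detected genes, used a hepatocyte score or the title code as a further term, counted members with a lower mean, or left out 1 library from levels, classes and lists.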

Additional observations from a re-analysis of the deposited data

How the results depend on the processing

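With 3 libraries in a group and reads of whole muscle, differences under about the spread between libraries could not be resolved. No paired analysis was possible because the replicate numbers follow accession order and pair no samples. Single-gene, correlation, list and level values were compared under all alternatives, and 701 were counted as unchanged. For a difference this meant the same direction and side of the threshold, and for a correlation the same direction. A list count had to stay within a set fold and a level within its SD. None of the differences had passed in the main fit, and an unchanged one could still shrink. Col24a1, maternal exercised minus maternal sedentary, went from -0.79 to -0.0045 without the hepatocyte-marked libraries. Of the rest, 7 reversed, and 7 levels per length and 2 list counts moved. Among the genes followed in each comparison 2, Col24a1 and Col3a1, became significant. No collagen gene was called under any alternative except in maternal exercised against maternal sedentary offspring, where Col24a1 was called without maternal sedentary library 1 (count of members called 0 to 1 when 1 library was left out) and 5 fibril-forming members, Col3a1 at 3.54 among them, with the title code as a term. That term leaves 5 residual degrees of freedom, and the comparisons of the maternal groups with control cannot be estimated with it. With it, 10 members had a lower mean in maternal exercised than in maternal sedentary offspring, and the median of the interaction was 0.53. The causes below were not tested.

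Col3a1, maternal sedentary minus control, was -0.01 and ranged from -0.22 to 0.23 when 1 library was left out; it was 0.20 without control library 2, 0.23 without maternal sedentary library 1, 0.078 without the libraries under 18000 detected genes and 0.10 with the hepatocyte covariate. It ranged from -0.54 to 1.57 for maternal exercised minus maternal sedentary, from -0.55 to 1.56 for maternal exercised minus control, and from -0.20 to 0.65 for paternal sedentary minus control. The median of the members ranged from -0.39 to 0.15 for maternal exercised minus maternal sedentary, from -0.30 to 0.17 for maternal exercised minus control and from -0.10 to 0.38 for the interaction, and the lowest value of each came without maternal exercised library 3.

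The number of members with a lower mean ranged from 8 to 25 for maternal sedentary against control, from 11 to 33 for maternal exercised against control, from 9 to 27 for paternal sedentary against control and from 12 to 24 for the interaction. Without the libraries with hepatocyte markers it was 11 for maternal exercised against control, 9 for paternal sedentary against control and 6 for the interaction. Without the libraries under 18000 detected genes it was 11 and 9 in the first 2 of these. With the longest transcript as length, RPKM was 15.5 for Col1a2, 6.61 for Col6a2, 0.967 for Col8a1, 0.522 for Col13a1, 3.31 for Col15a1, 0.196 for Col26a1 and 0.359 for Col27a1.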
